A study of Mus musculus with 30 samples.

Results

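The chromatin sites whose signal differed between doxycycline alone and doxycycline with blebbistatin were examined in primary mouse tail-tendon fibroblasts. All 6346 rows of the authors' deposited table for that pair of groups were taken, of 16367 rows over the 5 site lists of the series. The cells with doxycycline alone received 10 ng/mL, and the other group received 10 ng/mL doxycycline and 10 µM blebbistatin, both in medium with 0.1% serum and with 3 libraries per group. Groups with neither drug and with 10 µM blebbistatin alone, 3 libraries each, complete the experiment of 12 libraries. A separate set of ATAC libraries, treated without doxycycline, gave a list for 10 µM blebbistatin and one for 30 µM of the kinase inhibitor Y27632, each against DMSO, the solvent. The labels give the genotype as wildtype for all groups, name neither a doxycycline-responsive transgene nor its driver, and give no age. ATAC, which cuts and tags open DNA, is the one genomic DNA protocol they describe, without assigning it to these 12 libraries by name.

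Blebbistatin blocks non-muscle myosin II, the motor that pulls on actin filaments and gives fibroblasts their contractile tension. YAP and TAZ (Wwtr1) are co-activators that carry mechanical state to the genome: they do not bind DNA themselves, and reach it through TEAD factors, often at enhancers that also carry the Fos and Jun dimer AP-1. Tendon fibroblasts live under load, and produce and remodel a matrix rich in fibrillar collagen.

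Promoters of 4 genes are shown first because the listed sites cover them, so the letters of the changed chromatin can be read directly; they were chosen, after their values were seen, as promoters with a TEAD or an AP-1 motif inside the site. Each is the part of the 250 bp before the gene start that lies inside the site, so a site can reach farther upstream than the letters shown. The letters are from RefSeq on GRCm38.p6, 5′ to 3′ on the strand of the gene. Capitals mark GGAATG or its reverse complement CATTCC, the core bound by TEAD factors, and TGANTCA, the AP-1 motif, which reads alike on both strands. The stretches are chr9:7502156-7502341 (plus strand) for Mmp10, chr11:46454681-46454901 (plus strand) for Havcr2, chr3:90654052-90654232 (plus strand) for S100a7a and chr1:92978653-92978825 (plus strand) for Gpr35.
Mmp10: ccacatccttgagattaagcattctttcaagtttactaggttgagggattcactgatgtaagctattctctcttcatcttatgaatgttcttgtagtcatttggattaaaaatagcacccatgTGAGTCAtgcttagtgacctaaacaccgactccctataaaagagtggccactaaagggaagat
Havcr2: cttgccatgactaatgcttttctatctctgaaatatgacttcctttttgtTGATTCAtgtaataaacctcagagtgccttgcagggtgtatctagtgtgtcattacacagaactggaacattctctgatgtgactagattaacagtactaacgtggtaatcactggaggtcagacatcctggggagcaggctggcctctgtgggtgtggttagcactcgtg
S100a7a: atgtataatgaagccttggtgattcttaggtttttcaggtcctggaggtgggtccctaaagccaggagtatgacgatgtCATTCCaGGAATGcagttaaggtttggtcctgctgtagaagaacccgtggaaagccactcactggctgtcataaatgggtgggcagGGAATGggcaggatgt
Gpr35: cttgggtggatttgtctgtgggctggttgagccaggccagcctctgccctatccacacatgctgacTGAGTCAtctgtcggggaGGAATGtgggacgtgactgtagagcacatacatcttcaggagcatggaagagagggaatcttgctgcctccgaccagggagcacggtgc

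Mmp10 encodes stromelysin-2, a matrix protease, and its promoter holds 1 AP-1 match. In the authors' deposited table the site over it had a level of 5.66 with doxycycline and 4.29 with blebbistatin added, a log2 fold of -1.37 at an FDR of 0.000555. Levels here are log2 of the mean normalised reads of a group, folds are blebbistatin added minus doxycycline alone, and the FDR is the authors'. Havcr2 encodes the immune receptor TIM-3, holds 1 AP-1 match, and went from 6.76 to 5.37. S100a7a encodes a small calcium-binding protein of the S100 family, holds 3 TEAD matches, and went from 7.63 to 6.39. Gpr35 encodes an orphan G-protein-coupled receptor, holds 1 match of each kind, and went from 6.94 to 5.90. All 4 sites were thus lower with blebbistatin, as the list as a whole was.

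Of the 6346 listed sites, 6332 were lower and 14 higher with blebbistatin. The authors' deposited table holds only sites with an FDR of at most 0.05 and an absolute log2 fold of at least 1, which is how these members were chosen, so their fold and FDR are a description. About 72539 sites were tested, as worked out from rank, p-value and FDR, of which 8.75% were listed and 8.73% were listed as lower. The last listed site had rank 47795 by p-value, so that 65.9% of the tested sites passed the FDR and most of those had a fold below the threshold. Of the 100 sites with the lowest p-values 97 were listed, of the first 1000 there were 703, and of the first 10000 there were 3718. The lower sites had a median level of 6.09 with doxycycline and 4.92 with blebbistatin added. Their median log2 fold was -1.13 and the lowest was -2.42. Few were far past the threshold: 25.7% of them had a fold of -1.25 or lower, 341 of -1.5 or lower, and 15 of -2 or lower. Only group means were deposited, so the spread between the 3 libraries of a group and the depth of the libraries are unknown here.

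**Figure D1:**
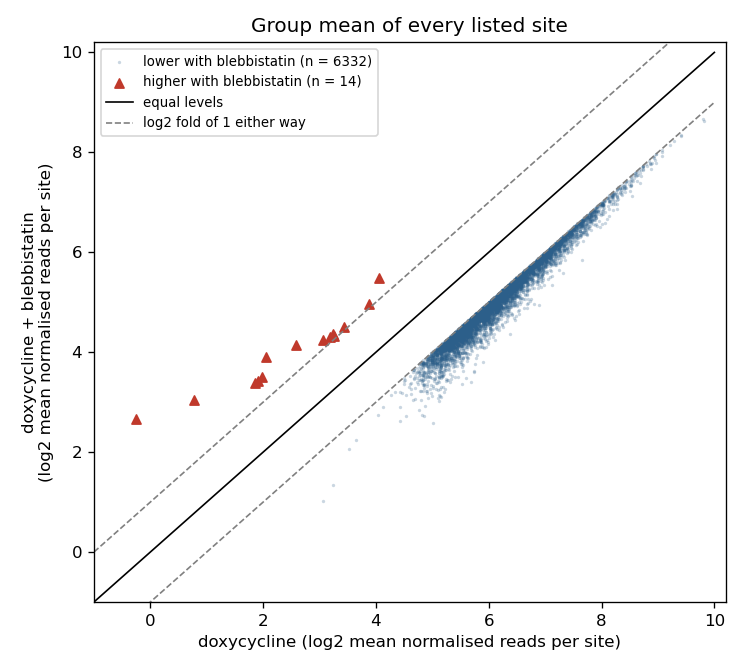
Level of every listed site with doxycycline (x axis) and with doxycycline and blebbistatin (y axis), both as log2 of the authors' mean normalised reads. The 6332 lower sites (dots) form a narrow band just below the lower dashed line, which marks a log2 fold of -1, and the 14 higher sites (triangles) lie at the low end of the scale, at or below 4.06 with doxycycline.

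Every listed site passed an absolute log2 fold of at least 1, so how the fold depends on the level cannot be read from the list. The lower sites were split into 4 equal groups by their level with doxycycline. From the lowest to the highest group, the median log2 fold was -1.16, -1.14, -1.13 and -1.10. The 5th percentile of sites was -1.61, -1.55, -1.47 and -1.38. The site with the lowest p-value lies in an intron of Samd4b, which encodes an RNA-binding protein, at chr7:28419412-28419947. In the authors' deposited table it went from 8.54 to 7.12, a fold of -1.42 at an FDR of 5.37e-23. The next by p-value were an intergenic site nearest to Mir710, from 7.65 to 5.84, and an intergenic site 45.4 kb upstream of Msc, which encodes musculin, a basic helix-loop-helix repressor, from 7.98 to 6.50. They were followed by sites nearest to Ddi1, a protease-like gene, with a fold of -1.42, and to Crabp1, a retinoic acid carrier, with a fold of -1.13. Crabp1 had one of the highest levels in the list, 9.80 with doxycycline and 8.67 with blebbistatin added.

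The lowest fold of all, -2.42, was an intergenic site 27.3 kb from the start of Wincr1, a long non-coding RNA, at chr4:89022996-89023114, which went from 5.01 to 2.59. It was followed by an intronic site of Irak1bp1 at -2.26, an intronic site of Ivns1abp at -2.16, and intergenic sites at -2.14 nearest to Tmeff2 and at -2.13 nearest to Celf4. Ivns1abp encodes a protein that binds actin, and Irak1bp1 a partner of a kinase of innate immune signalling. At the other end, 301 sites had an absolute fold of 1, the threshold itself, at the precision of the authors' deposited table, and their levels with doxycycline ran from 4.79 to 8.84 with a median of 6.25. Those of Asb5, Tns1 and Zfp648, each at -1, had the lowest p-values among them, with levels of 8.73, 8.61 and 8.52. Sites outside the threshold were not analysed here.

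The 14 higher sites had a median level of 2.83 with doxycycline and 4.20 with blebbistatin added, well below the lower sites. Trabd2b, which encodes a metalloprotease that cleaves Wnt proteins, had the site with the lowest FDR among them, 0.000108. It went from 4.06 to 5.48 in the authors' deposited table, a fold of 1.42. The highest fold, 2.90, was at an intergenic site nearest to Gpat3, a glycerolipid enzyme, from -0.25 to 2.66, with an FDR of 0.0204. Folds of 2.28 at Fstl4, 1.86 at Crybg3, 1.56 at Nkx6-2, 1.53 at Atl2, 1.51 at Slc10a7 and 1.51 at Mir6378 followed. The remaining 6 higher sites, nearest to 4930448K20Rik, Eci2, Zfp808, Dcpp2, Myo16 and Mir6372, had folds between 1.08 and 1.19. None of the 14 lay in a promoter: 8 were intergenic and 6 intronic.

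The sites were short and mostly far from gene starts. Their median length between start and end was 215 bp, and their median distance to the nearest transcription start was 44543.5 bp. Only 157 sites (2.47%) lay within 1 kb of a start, 878 (13.8%) at 1 to 10 kb, 2339 (36.9%) at 10 to 50 kb, 1135 (17.9%) at 50 to 100 kb, 1630 (25.7%) at 100 to 500 kb and 207 (3.26%) beyond that. By the authors' annotation 3256 sites (51.3%) were intergenic, 2823 (44.5%) intronic and 113 (1.78%) at promoters. Introns and intergenic sites had median folds of -1.12 and -1.13, and promoter sites -1.08.

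The list for doxycycline against neither drug, which shares the doxycycline libraries, held 1422 promoter sites among 7613, or 18.7%. The list for blebbistatin without doxycycline, which shares no library with this one, held 13 among 1231, or 1.06%. CpG islands were the annotation of 0 sites here and of 137 sites (1.80%) of the doxycycline list. Annotated repeats held 1474 sites (23.2%), led by LTR elements with 523, LINE elements with 431 and SINE elements with 298, and the median fold in repeats, -1.13, was that of the whole list. The makeup of all tested sites is not known here, so no share was tested.

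**Figure D2:**
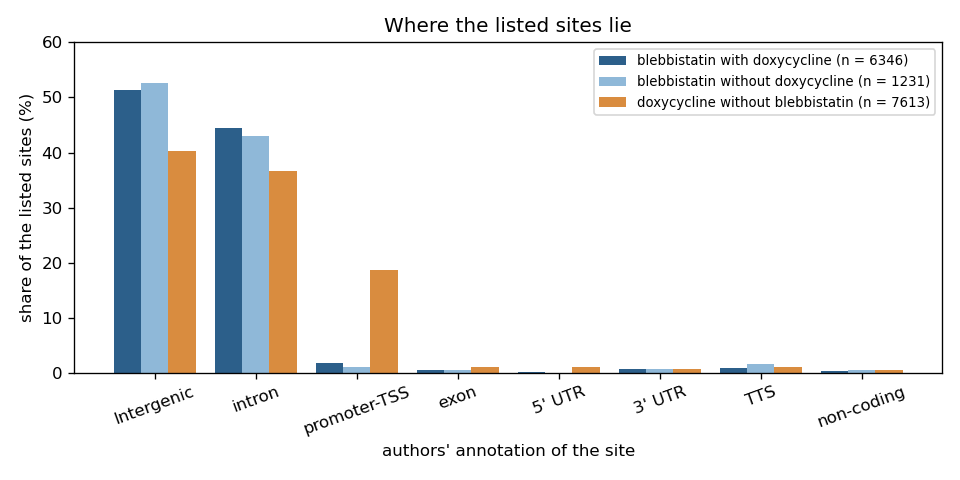
Share of the listed sites (y axis, percent) in each class of the authors' annotation (x axis) for 3 lists of the doxycycline experiment. Promoters hold 1.78% of the sites lower or higher with blebbistatin in the presence of doxycycline, 1.06% without doxycycline, and 18.7% of the sites that differ with doxycycline alone.

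Of the listed sites, 1132 (17.8%) had another listed site within 10 kb. The positions of the other tested sites are not known here, so no baseline can be set beside this share. One group of 5 such sites stood out, chosen after its values were seen. It spans chr13:23498055-23504037, upstream of Btn2a2, which encodes a butyrophilin of the immunoglobulin family, with folds from -1.64 to -1.

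Adamts5 encodes an aggrecanase, a protease that cuts the proteoglycan aggrecan, and had 13 listed sites, the most of any protein-coding gene. All 13 were upstream of it, 9.97 to 342.5 kb from its start, all intergenic, between chr16:85910991 and chr16:86243708. Their folds ran from -1.72 to -1.01 with a median of -1.27. The strongest fold was at chr16:86180123-86180413, 279 kb upstream, where the level went from 5.97 to 4.25. The site at the highest level, 322 kb upstream, went from 7.70 to 6.67. Of the 13, 4 were also in the list for blebbistatin without doxycycline and 2 in the ATAC list for blebbistatin, all lower there too.

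Mir6344, a microRNA gene, had 14 sites, the most of all, with folds from -1.99 to -1, and these lay 19.5 to 514.9 kb from it. Dlc1, which encodes a GTPase-activating protein that restrains RhoA, the upstream switch of myosin contraction, had 10 sites, all annotated as intronic. The strongest of them, at chr8:36704343-36704700, went from 8.07 to 6.59, a fold of -1.48 in the authors' deposited table. The non-coding gene 1700019E08Rik had 9 sites, with folds from -1.50 to -1.02. Genes with 8 sites included Asap1, an Arf GTPase-activating protein of adhesion sites, Bmpr1b, a BMP receptor, Efna5, an ephrin ligand, Flrt2, a membrane protein of fibronectin and leucine-rich repeats, and the non-coding genes A730020E08Rik and Gm20125. One site nearest to Efna5, at chr17:61005390-61005634, had a fold of -2.01 but lay 1876 kb from its start, and which gene a site acts on was not tested.

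**Figure D3:**
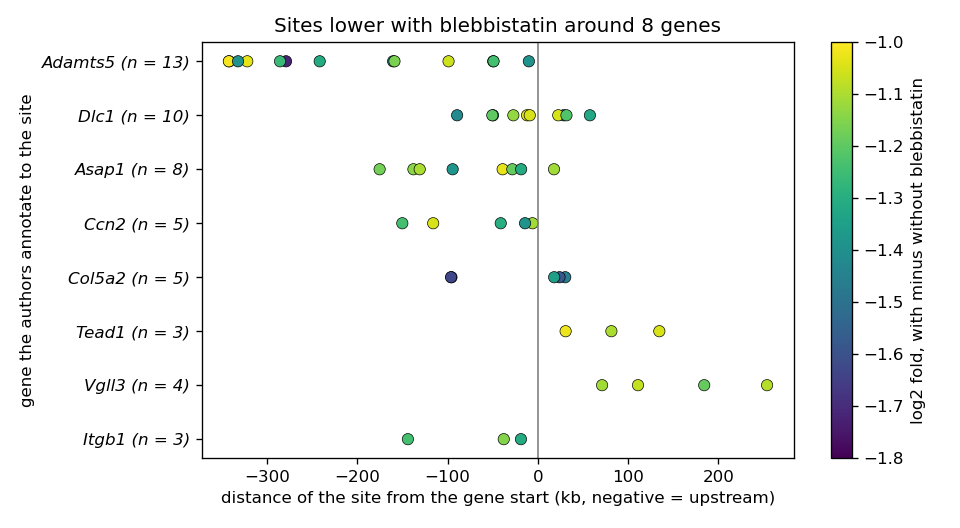
Position of each listed site relative to the start of the gene the authors annotate to it (x axis, kb, negative upstream) for 8 genes (rows), coloured by log2 fold. The 13 sites of Adamts5 all lie upstream, reaching 342.5 kb, and the 5 of Col5a2 lie on both sides and are among the darkest, with folds from -1.67 to -1.35.

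The sites nearest to the genes of 9 lists were all lower, as were 99.8% of all listed sites, so their direction is not particular to these genes. As a scale for the counts of list genes with a site, 2653 of the 14882 genes tested in RNA, described below, had a lower site. Those genes were longer than tested genes with no listed site, with medians of 59.0 and 19.0 kb. The part of length in the counts of the 9 lists was not tested. Of 26 YAP/TAZ target genes, 12 had a site, 28 sites in all, with a median log2 fold of -1.14. Ccn2 (CTGF), a matricellular protein and much-used target, had 5 sites from 5.98 to 150.2 kb upstream. In the authors' deposited table the nearest, at chr10:24589320-24589613, went from 7.37 to 6.26, and the steepest, at chr10:24581145-24581344, from 5.78 to 4.39. Ccn1 (CYR61), its relative, had 1 site, 52.9 kb upstream at chr3:145702773-145703067, which went from 7.60 to 6.56. That site was in all 4 other lists: its fold was 1.26 for doxycycline, -1.36 for blebbistatin without doxycycline, -1.61 in the ATAC list for blebbistatin and -1.37 in the one for Y27632. Ankrd1, a cardiac-type ankyrin repeat protein, had 1 site with a fold of -1.14, and Ptpn14, a phosphatase that binds YAP, 1 site with a fold of -1.25.

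Of 16 genes of the Hippo pathway machinery, 6 had a site, 12 sites in all. Tead1, the DNA-binding partner of YAP, had 3 intronic sites with folds from -1.10 to -1.02. Vgll3, a TEAD cofactor, had 4 sites 71.2 to 254.1 kb from its start, with folds from -1.19 to -1.07. Vgll4, a TEAD corepressor, had 2 sites at -1.05, Wwtr1 (TAZ) 1 at -1.02, Sav1, the scaffold of the Hippo kinases, 1 at -1.41, and Lats2, the kinase that phosphorylates YAP and TAZ, 1 at -1.07. Against the 8.73% of tested sites that were listed as lower, these counts per gene cannot be read, because the number of tested sites nearest to each gene is not known here.

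Of 28 structural matrix genes, 14 had a site, 35 sites in all. Col5a2, a chain of the collagen that sets fibril width, had 5 with folds from -1.67 to -1.35, and a pair of them at chr1:45598985-45599149 and chr1:45599426-45599644 went from 5.94 to 4.27 and from 5.95 to 4.32. Col5a1, the partner chain, had 4 sites with a lowest fold of -1.63. Lox, which crosslinks collagen, had 4 from -1.13 to -1.01, Fbn1 (fibrillin) 4 from -1.22 to -1.07, and Tnc (tenascin) 3 from -1.13 to -1.09. Among 25 matrix-degrading genes and their inhibitors, 10 had a site, 26 sites in all. Beside Adamts5 these were Adam12 with 3 sites, Timp3, an inhibitor of metalloproteases, with 3, and Adam9, Adam10, Adamts1, Adamts2, Mmp10, Plau and Timp1 with 1 each.

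Of 21 genes of actin and of its regulator SRF, 5 had a site. The site of Acta2 (smooth muscle actin), 10.5 kb upstream at chr19:34265544-34266131, went from 8.59 to 7.58 and was in all 4 other lists, with folds of 1.05 for doxycycline, -1.12 for blebbistatin alone, -1.63 in the ATAC list for blebbistatin and -1.29 for Y27632. Cald1 (caldesmon) had 2 sites, at -1.56 and -1.30, and Vcl (vinculin), Cnn2 (calponin) and Actb (beta-actin) 1 each. Of 22 focal adhesion genes, 8 had a site, 13 sites in all. Itgb1, the common integrin beta chain, had 3, the nearest 18.7 kb upstream, from 8.27 to 6.96. Lpp, a zyxin relative, had 2, the stronger from 7.54 to 6.15, and Itga5, the fibronectin receptor chain, 1, from 8.53 to 7.32.

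In the remaining lists, sites were nearest to 4 of 15 TGF-beta pathway genes (Tgfb2, Tgfb3, Tgfbr1 and Smad3) with 5 sites, 3 of 12 AP-1 genes (Fos, Jun and Maf) with 8 sites, and 5 of 12 tendon identity genes (Mkx, Egr2, Tnc, Col14a1 and Prg4) with 10 sites. Prg4 (lubricin), the joint and tendon lubricant, had 3 sites with folds from -1.30 to -1.06, and Mkx (Mohawk), a tendon transcription factor, 1 with a fold of -1.18. The site of Jun went from 7.14 to 5.97.

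The sites were next set beside the groups without blebbistatin and without doxycycline. Of the 6346 sites, 2016 (31.8%) overlapped a site of the doxycycline list by at least 1 bp, which is 26.5% of that list. That list holds 9.36% of the sites tested for it. Both lists were computed with the same doxycycline libraries, so the overlap is given as a count only. At 1768 places with identical start and end, each raised with doxycycline and lowered when blebbistatin was added, the median level was 4.71 with neither drug, 6.05 with doxycycline and 4.84 with both. The level with both drugs minus that with neither had a median of 0.09, with the 5th and 95th percentiles of sites at -0.36 and 0.70. In 1534 of the 1768 sites the pair of levels lay within 0.5 of each other, in 30 the level with both drugs was at least 1 higher, and in 2 at least 1 lower. Both thresholds chose these sites, and both folds share the doxycycline libraries, so nothing is read from how near the levels with both drugs and with neither are. The level with neither drug comes from the table of the doxycycline list, where the level with doxycycline was identical to that in this list at all 1768 sites (difference of 0), and from a column whose header names the blebbistatin-only group but whose values matched the group with neither drug.

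Dlc1 held the example with the highest doxycycline fold among the genes named here. Its site at chr8:36704343-36704700 had a fold of 2.75 for doxycycline and -1.48 for blebbistatin on top of it. At Wincr1 the corresponding folds were 1.89 and -2.42, and at one Col5a2 site, chr1:45485154-45485282, 2.06 and -1.35. The share of a gene's sites in the doxycycline list varied, beside 31.8% of all listed sites. It was 6 of 10 for Dlc1, 2 of 13 for Adamts5, 1 of 14 for Mir6344 and 1 of 8 for Flrt2.

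**Figure D4:**
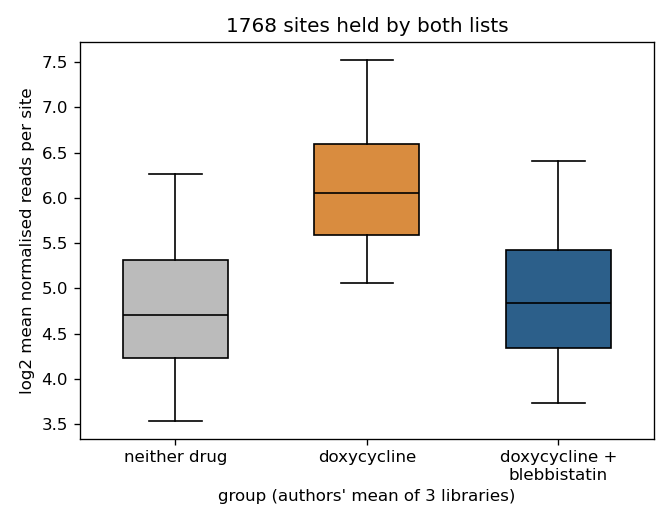
Level (y axis, log2 of the authors' mean normalised reads) in 3 groups (x axis) at the 1768 sites held by both lists with identical start and end. Boxes span the quartiles of the sites with the median as a line, and whiskers reach the 5th and 95th percentiles of sites; medians are 4.71, 6.05 and 4.84.

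The list was then compared with those that share no library with it. Of the 1231 sites for blebbistatin without doxycycline, 408 (33.1%) overlapped 399 sites (6.29%) of the list described here, and all 408 pairs were lower in both. The median log2 fold of these pairs was -1.15 with doxycycline and -1.23 without it. Of the 970 sites in the ATAC list for blebbistatin, 230 (23.7%) overlapped 226 sites (3.56%), all lower in both. Their median folds were -1.15 here and -1.62 there. The weakest fold among these pairs was -1 here and -1.28 there, so the medians do not compare effect sizes. Of the 207 in the ATAC list for Y27632, 56 (27.1%) overlapped, all lower in both. These lists hold 1.78%, 1.54% and 0.335% of the sites tested for them, and most of their sites were lower, 1219 of 1231, 953 of 970 and 176 of 207. Sites also found with blebbistatin alone had higher levels with doxycycline, a median of 6.92 against 6.04 for the rest. A further 3993 sites (62.9%) were in none of the other 4 lists, and 13 were in all of them, including those of Ccn1, Acta2 and Mir710.

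The authors gave the positions of a TEAD motif for the ATAC list only. It was present in 151 of the 230 ATAC sites that overlapped the list described here (65.7%) and in 452 of the 740 that did not (61.1%). In the promoters of RefSeq, 300 bp windows from 250 bp before to 50 bp after a start, the site list touched 63 windows of 61 genes. TEAD motifs (GGAATG or CATTCC) were in 15 of these 63 windows (23.8%) and in 14.7% of all 32851 windows. AP-1 motifs (TGANTCA) were in 20 of the 63 (31.7%) and in 7.81% of all. All windows were counted whether or not a tested site lay in them, and base composition was not matched. The motif shares are therefore a description and were not tested. Mmp10, Havcr2 and Gpr35, printed above, are among the 20. Sprr1a, which encodes a small proline-rich protein, also had 2 AP-1 matches there, chosen after its values were seen, and its site had a fold of -1.05.

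RNA gives a readout that the choice of sites did not use. Poly(A) RNA was measured with 10 µM blebbistatin and with DMSO, without doxycycline, in 3 libraries each, of 23375386 to 31326871 reads in genes. These libraries differ from those of the sites in the absence of doxycycline. Nothing in the labels says whether replicates came from separate cultures, so p-values measure the spread between these libraries. All 8 fibroblast markers reached a mean of 10 normalised counts and summed to 980743 or more in every DMSO library and 939070 or more in every blebbistatin library, and 0 of 4 muscle markers reached 10 (summed level of 6.9 to 8.8 and of 5.2 to 9.0, 1 marker at 0). Of 4 keratinocyte markers 1 reached 10 and 1 was at 0, with sums of 70 to 75 and of 56 to 74. The summed level of 5 macrophage markers was 5588 to 6185 with DMSO and 8019 to 9009 with blebbistatin. That of 4 endothelial markers was 3166 to 3230 and 2005 to 2250, and 3 of these 4 reached a mean of 10. The highest mean of a single marker was 5514 in the macrophage set and 2562 in the endothelial set, so each sum rested largely on a single gene. The part of these cell types in the results was not tested. In bulk samples fewer cells of a type and less RNA per cell cannot be told apart.

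The share of genes with lower RNA was 36.8% among genes nearest to a lower site. Of 14882 genes tested with limma at an adjusted p under 0.05, 26.9% were lower and 26.1% higher. Of the 2653 tested genes with at least 1 lower site, 977 were lower and 705 (26.6%) higher, with a median log2 change of -0.04. By the number of sites, the share that was lower was 33.6% of 1761 genes with 1 site, 38.5% of 488 with 2, 46.5% of 327 with 3 or 4, and 45 of 77 (58.4%) with 5 or more. The share that was higher was 27.1%, 27.9%, 24.5% and 14.3%. Gene length moved with the number of sites, with medians of 48.0, 90.2, 104.5 and 130.3 kb, while the median normalised count was 842, 952, 850 and 858. Tested genes with no listed site were shorter and lower, with medians of 19.0 kb and 518 normalised counts. The parts of length and of count in these shares were not tested. By distance, 35.1% of genes whose nearest site was within 1 kb were lower, and 37.1%, 37.4% and 36.0% of those at 1 to 10, 10 to 50 and over 50 kb. These shares were not tested against each other, since genes are not replicates.

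**Figure D5:**
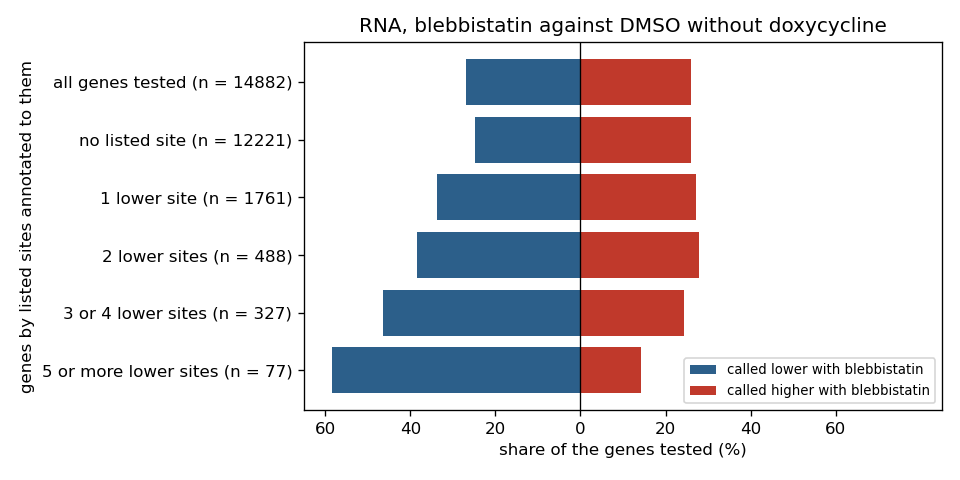
Share of tested genes called lower (left bars) and higher (right bars) in RNA with blebbistatin against DMSO, without doxycycline (x axis, percent), by the number of listed lower sites nearest to the gene (rows). The left bars lengthen from 24.8% for genes with no site to 58.4% for genes with 5 or more. The right bars are 26.0% with no site, then 27.1%, 27.9%, 24.5% and 14.3%.

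Genes were also grouped by whether their site was in another list. Of 224 tested genes with a site shared with the list for blebbistatin alone, 114 (50.9%) were lower and 45 higher. Of 129 with a site shared with the ATAC list for blebbistatin, 80 (62.0%) were lower and 19 higher. Their median number of sites was 2 and 3, and their median length 71.6 and 77.4 kb. Over all tested genes with a lower site, these medians were 1 site and 59.0 kb. The parts of site number and length in the shares were not tested. Genes with a site in the doxycycline list were lower in 435 of 1059 (41.1%), and genes with none there in 542 of 1594 (34.0%). The 8 tested genes with a higher site had 2 lower and 3 higher, too few to read beside the 26.9% and 26.1% of all genes tested.

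Adamts5 RNA was 34852, 36966 and 34422 normalised counts in the DMSO libraries and 10239, 10108 and 10397 with blebbistatin. Every blebbistatin library lay far below every DMSO library, and the log2 change was -1.79 (SE 0.033, limma adjusted p of 2.61e-12). Dlc1 went from 3401, 3477 and 3126 to 2002, 2034 and 2025, again without overlap, a log2 change of -0.72. Efna5 fell by 0.54 on the log2 scale. Asap1 and Bmpr1b, with 8 sites each, did not pass the test: their log2 changes were 0.02 and 0.06, with limma adjusted p of 0.691 and 0.623. Flrt2, also with 8 sites, rose by 0.18.

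Of the 12 YAP/TAZ targets with a site, 8 were lower in RNA and 2 higher, and of the 14 without one, 9 were lower and 3 higher. Ccn1 went from 9898, 10690 and 10942 to 2347, 2666 and 2818, a log2 change of -2.01 (limma adjusted p of 7.30e-11). Ccn2 went from 3137, 3400 and 3823 to 934, 1238 and 1252, a change of -1.60. For both genes the groups were well apart. Ankrd1 changed by -1.36 and Rbms3, an RNA-binding protein with 4 sites, by -1.05. The 2 higher were Amotl1 (angiomotin-like), a binding partner of YAP, at 0.18, and Tgfb2, a TGF-beta ligand, at 1.16.

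Of the 6 genes of the Hippo pathway machinery with a site, 3 were lower and 2 higher, and of the 10 without one 4 were lower and 3 higher. Tead1 went from 9084, 8983 and 7952 to 4158, 4003 and 4065, a log2 change of -1.09. Vgll3 went from 16120, 16875 and 16221 to 5880, 5983 and 5974, a change of -1.46. Both separated fully between groups. Vgll4 and Wwtr1 moved the other way, at 0.67 and 0.33, although their sites were lower, and Lats2 changed by -0.80.

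Of the 14 structural matrix genes with a site, 9 were lower and 2 higher, and of the 14 without one, 5 were lower and 7 higher. Col5a2 went from 248410, 254041 and 243089 to 177208, 183392 and 172682, a log2 change of -0.48. Lox changed by -0.57, Fbln5 (fibulin) by -0.52 and Col11a1 by -0.52, while Thbs2 (thrombospondin) rose by 0.69. Of the 10 matrix-degrading genes and inhibitors with a site, 6 were lower and 4 higher, and of the 15 without one, 1 was lower and 11 higher. Timp3 changed by -1.34 and Adamts1 by -1.60. Adam12 rose by 1.86 although its 3 sites were lower.

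Mmp10 RNA, measured without doxycycline, and its promoter site, measured with it, went in opposite directions. The site, printed above, was lower with blebbistatin in the presence of doxycycline and was not in the list for blebbistatin without doxycycline. Its RNA went from 165, 140 and 194 normalised counts with DMSO to 2271, 2004 and 1909 with blebbistatin, and the log2 change was 3.63 (SE 0.103). Havcr2 RNA also rose, by 0.79, and Gpr35 did not pass the test, at 0.15. S100a7a RNA went the way of its site: it was 60.6, 70.6 and 63.2 normalised counts with DMSO and 45.7, 28.0 and 47.8 with blebbistatin, a log2 change of -0.70 (limma adjusted p of 0.0145). That call was lost without DMSO library 2 (adjusted p of 0.0546) or blebbistatin library 2 (0.0514). Of the 80 tested genes with a promoter site, 26 were lower and 21 higher, with a median of -0.03. Over all 14882 genes tested, 26.9% were lower and 26.1% higher, so little can be read from these counts.

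The 5 actin and SRF genes with a site, Acta2, Actb, Cald1, Cnn2 and Vcl, were all lower in RNA, with log2 changes of -0.97, -0.78, -0.65, -1.41 and -1.03, and of the 15 tested without a site 12 were lower and 1 higher. Of 8 focal adhesion genes with a site, 5 were lower and 0 higher, led by Tns3 (tensin) at -0.76 and Lpp at -0.51, and of the 14 without one 10 were lower and 3 higher. Of the 3 AP-1 genes with a site, Jun rose by 0.69 and Fos by 0.44 and 0 were lower, and of the 8 tested without one 1 was lower and 3 higher. Of the 5 tendon identity genes with a site 1 was lower and 3 higher, and of the 7 without one 1 and 4. Of the 4 TGF-beta genes with a site, Smad3 was lower at -0.21, and Tgfb2 and Tgfbr1 were higher, and of the 11 without one 7 were lower and 1 higher. Tgfbr1, at 0.11 with a limma adjusted p of 0.0307, did not pass in DESeq2 (adjusted p of 0.0847) or without any of 4 single libraries, DMSO 2 or 3 and blebbistatin 1 or 3.

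Among called genes with a site and a mean of at least 100 normalised counts, the RNA changes reached from -2.86 for Ptx3, a secreted pentraxin of innate immunity, to 3.69 for Tcim, a regulator of Wnt signalling. Ptx3 had 2 intronic sites with folds of -1.23 and -1.11, and Tcim 2 intergenic ones with -1.26 and -1.04. Npr3, the clearance receptor of natriuretic peptides, changed by -2.60, Cyp26b1, which degrades retinoic acid, by -2.53, Gna14, a G-protein subunit, by -2.41 and Adra1d, an adrenergic receptor, by -2.41. On the side of increases stood Mmp10, Dio2, an activating thyroid hormone deiodinase, at 2.66, Rgs2, a brake on G-protein signals, at 2.29, and Hmgcll1, a lyase of ketone synthesis, at 2.28. All of these genes had lower sites only, as nearly all listed sites were lower. They were taken from the highest and the lowest called RNA changes, so both directions were set by that choice. Nothing about sites and RNA is read from them.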

How the data were processed

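The site lists hold, per the file headers, log2 group means, a log2 fold, p-value and FDR columns and an annotation, with no value per library, so every site value is the authors' and no SD or test of sites was computed. Tools named in the submitters' processing notes are HISAT2, Picard, featureCounts, DESeq2, Bowtie2, SAMtools, MACS2, DiffBind and HOMER, with build mm10. An overlap of 1 bp or more made 2 sites shared. The distance to the nearest start is another deposited value of the annotation. One header needed a check: the reference of the doxycycline list carries the name of the blebbistatin-only group. At 13 sites of identical position it was on average -0.13 (SD 0.0044) away from the no-drug group and 1.12 (SD 0.184) away from the group it is named for, so it was taken to be the no-drug group.

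The RNA table holds a normalised signal, which the authors deposited as counts scaled by a size factor, since 100% of values were whole multiples of 1 step within 0.01. Genes with a mean of at least 10 were tested on the log2(normalised count + 1) scale with limma 3.58.1 (trend on, R 4.3.3), which understates changes of low genes, with Benjamini-Hochberg adjustment, called at an adjusted p under 0.05. The test was checked on simulated data. Every pair of replicates differed by more than sampling noise. Alternatives were edgeR 4.0.16 and DESeq2 1.42.0 on the recovered reads, other pseudocounts and filters, a replicate block, and each library left out. Of 4000 gene names of the sites, 3971 matched the RNA table. Promoters are RefSeq windows on GRCm38.p6, the same assembly version as mm10.

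Named sites are the 5 lowest folds at an FDR under 0.01, the 5 lowest p-values, all higher sites, the 3 nearest to the fold threshold and those of list genes. Named genes are the 10 with the most sites, list members with a site, and the 5 highest and 5 lowest called RNA changes with a mean of at least 100. Other names are said to be chosen after their values were seen. The members and lists were chosen with earlier results of these data known.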

Additional observations from a re-analysis of the deposited data

How the results depend on the processing

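The count of lower sites was 5068 at an FDR under 0.001 and 341 at an absolute log2 fold of at least 1.5, and that of higher sites 1 and 7. A reciprocal overlap of 50% left 2016, 368, 190 and 50 sites shared with the lists of doxycycline, blebbistatin alone, ATAC blebbistatin and ATAC Y27632. Genes with a lower site and lower RNA numbered 975 with edgeR, 890 with DESeq2, 944 with a mean of at least 50 and 878 to 943 without 1 library, and 708 with sites within 50 kb only. Over all genes, 3534 to 3830 were lower and 3402 to 3564 higher without 1 library. With a replicate block, 3874 genes were lower and 3730 higher, and 946 and 681 of those with a lower site. The numbers of DMSO and blebbistatin libraries did not pair them: deviations of same-numbered libraries correlated at -0.061, 0.022 and 0.013, and not every library correlated best with its own number. Of 49 genes whose RNA is named, 45 kept direction and call. Without 1 library, the change of Asap1 ranged from -0.0018 to 0.052 and that of Bmpr1b from -0.038 to 0.12; neither was called in any fit. Tgfbr1 lost its call with the block (adjusted p of 0.0598), in DESeq2 and without 1 of 4 libraries, and S100a7a without 1 of 2 libraries. Site values are group means, so their spread, depth and dependence on single libraries could not be examined, and the nearest gene need not be the one a site acts on.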
